A study of Mus musculus with 6 samples.

Results

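Fibroblasts are the matrix-producing stromal cells of the adventitia and of the tissue around a vessel. Here they are the droplet barcodes with at least 500 detected genes, at most 10% mitochondrial UMIs (unique molecular identifiers, 1 per captured transcript), at least 5 UMIs of Col1a2, Dcn and Pdgfra together, and no UMI of Ptprc, the leukocyte marker CD45, or of Pecam1, the endothelial marker CD31. The rule found 9954 fibroblasts among 20086 barcodes that passed the quality limits in 4 libraries, and the whole series of 6 libraries held 24488 such barcodes. The 4 libraries came from dermal collecting lymphatic vessels of untreated C57BL/6 mice, dissected with some of the tissue around them after Evans Blue was injected into the inguinal lymph node, and digested with collagenase, elastase and dispase. At 6 weeks (young) and at 12 months (middle-aged) there was 1 library labelled male and 1 labelled female, so each age has 2 fibroblast sums. The labels do not say how many mice were pooled for a library, so a p-value covers the spread among these 4 libraries and no more, which may be partly technical. The comparison asks which genes differed in vessel fibroblasts between mice that are still growing and mature adults. Vessels of 18-month mice enter only 1 alternative fit.

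Fibroblasts make and maintain the fibrillar collagens, proteoglycans and elastic fibres around a collecting lymphatic vessel. In growing skin they synthesise collagen at a high rate, and in adult skin this synthesis is known to be lower. The same cells are a source of chemokines, of complement and of growth factors, and enzymatic digestion is known to switch on stress and immediate early genes in them.

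Lists of values below start with the 6-week libraries (young male, then young female) and go on with those of 12 months (labelled middle-aged male, then labelled middle-aged female). The libraries held 28921825, 18244101, 23208824 and 9616652 UMIs, and the fibroblast sums 4567, 1819, 3106 and 462 cells with 15893621, 6796333, 10654372 and 4725821 UMIs. The labelled middle-aged female library stood apart, with a median of 10305.5 UMIs per fibroblast against 3235 to 3580 in the others. Both middle-aged libraries went against their sex labels. Xist, the RNA of the inactive X chromosome, was at 0.126, 1539, 1404 and 0.212 CPM (UMIs divided by the total of the fibroblast sum and multiplied by the same constant for every library), and the Y-linked Ddx3y at 126, 0, 0 and 207 CPM. Each age still had 1 library with Xist RNA and 1 with Y-linked RNA. Between any pair of the 4 libraries 0 to 2 fibroblast barcodes were the same. Fibroblasts made up 55.5%, 40.4%, 48.8% and 46.2% of the kept barcodes, and the middle-aged shares lay between the young ones.

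The gated cells carried fibroblast RNA in each library, and the 3 markers of the rule differed in their pattern over the ages. Dcn (decorin, a small proteoglycan that binds collagen) was at 9338, 10913, 6752 and 10807 CPM, with the groups overlapping. Pdgfra, the receptor for platelet-derived growth factor, was at 321, 499, 379 and 283 CPM, also overlapping. Col1a2, a chain of type I collagen, was at 17802, 6204, 2765 and 3018 CPM, so that both middle-aged values lay below both young ones. These genes chose the cells and are given as a description. The median fibroblast held 78, 59, 30 and 135 UMIs of the 3 markers. Just inside the limit, with 5 to 9 marker UMIs, were 25, 12, 122 and 2 fibroblasts, and 35, 11, 46 and 1 barcodes with 3 or 4 fell just outside.

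RNA of other cell types was present at low and unequal levels. All 12 macrophage markers were detected, with a summed level of 388, 227, 205 and 19.9 CPM against 16868, 15161, 16035 and 11816 CPM in leukocytes of the same libraries (barcodes with Ptprc and under 5 fibroblast marker UMIs). Ptprc and Pecam1 were at 0 by the rule. The 12 epithelial markers summed to 23.8, 91.4, 569 and 16.1 CPM, and 8 adipocyte markers to 229, 14.1, 6.57 and 6.14 CPM. The 12 mast cell and neutrophil markers, of which 1 was at 0 in all 4 sums, summed to 46.4, 14.1, 79.8 and 47.4 CPM. The 8 lymphatic endothelial markers summed to 154, 204, 250 and 434 CPM. The part of these levels in the results below was not tested, except where a value is given.

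No gene passed the threshold between the ages. Of 12052 genes tested with edgeR's quasi-likelihood test, 0 were higher and 0 lower at 12 months at an adjusted p of 0.05 (0% of the genes in each direction), and the smallest adjusted p was 0.566. At an unadjusted p of 0.05 edgeR gave 587 higher genes (4.87%) and 435 lower genes (3.61%), 1022 in all. DESeq2, run on the same sums as an alternative, called 76 genes higher (0.631%) and 38 lower (0.315%) at an adjusted p of 0.05. Without a filter on low counts edgeR called 549 genes. With labelled sex in the model it called 0 as labelled. It called 6 with the middle-aged labels exchanged, the assignment that Xist and Y-linked RNA give. Mrgprg, Pdgfrl and Thbs4, described below, were among these 6. The values below are therefore descriptions of 2 libraries against 2. Unless another value is given, the edgeR adjusted p of a gene named below was 0.566 or larger. Whether the groups overlap was read on CPM normalised by edgeR's TMM factors, which correct the library totals for a few very abundant genes. On that scale 2571 genes (21.3%) had both middle-aged libraries above both young ones and 2865 (23.8%) had both below. Counts of list members given further on use that scale unless plain CPM is named, and are to be read beside these shares. On plain CPM the split was 1772 (14.7%) above and 3617 (30.01%) below. The median log2 difference over all genes tested was −0.03, and −0.14 on plain CPM.

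Among the genes of smallest p on the higher side, 4 encode proteins of different kinds and had both 12-month sums above both 6-week sums. Mid1, a microtubule-associated ubiquitin ligase encoded at the edge of the pseudoautosomal region of the X chromosome (chrX:169685199-170005736), was at 44.1, 57.5, 191 and 296 CPM. Both middle-aged sums lay above both young sums, at a log2 difference of 2.40 ± 0.34 (SE, n = 2 libraries per age), and DESeq2's adjusted p was 3.03e-07. Tgif1, a homeobox repressor that limits TGF-beta responses, was at 37.7, 47.7, 134 and 112 CPM, a log2 difference of 1.64 ± 0.23. Slc7a5, the large neutral amino acid transporter, was at 5.10, 5.30, 19.4 and 21.2 CPM (log2 difference 2.07 ± 0.30). Tuba4a, an alpha-tubulin, was at 11.0, 11.5, 44.3 and 73.6 CPM (2.51 ± 0.37). In each of these genes the values within an age were closer to each other than to those of the other age.

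The other leading genes on the higher side, mt-Nd4l and S100a8, had higher levels in free RNA than in the fibroblast sum of every library. RNA outside the fibroblasts was not particular to them. Tgif1 (115, 139, 313 and 254 CPM) and Tuba4a (39.3, 46.8, 66.05 and 92.6 CPM) were higher in leukocytes than in fibroblasts of every library. mt-Nd4l, a mitochondrially encoded subunit of respiratory complex I, was at 131, 188, 703 and 594 CPM, a log2 difference of 2.15 ± 0.27. In the free RNA of the same libraries, read from barcodes with 10 to 100 UMIs, it was at 1953, 4056, 10619 and 14973 CPM. Both quantities were higher at 12 months, and with the estimated free RNA subtracted from the sums the log2 difference was 3.29 ± 1.06. That estimate, scaled by macrophage markers, was 6.23%, 3.20%, 5.80% and 0.737% of the sums. The labelled middle-aged female sum was thus corrected least, and the part of free RNA in the difference was not tested. S100a8, a calcium-binding protein abundant in neutrophils, was at 2.20, 0.736, 34.5 and 25.0 CPM (4.28 ± 0.56). Its level in leukocytes was 9.65, 51.2, 64.6 and 15726 CPM and in the free RNA 29.0, 49.5, 81.7 and 1304 CPM. With each cell thinned to 1000 UMIs, a UMI of S100a8 was found in 0.0887%, 0.111%, 0.263% and 1.302% of fibroblasts. In leukocytes thinned to the same depth the shares were 0.168%, 0.475%, 1.098% and 50.4%. Without thinning, and so at unequal depth, they were 0.175%, 0.275%, 0.612% and 12.6% of fibroblasts, and 0.396%, 0.765%, 1.38% and 56.5% of leukocytes. With the same unequal subtraction of free RNA its log2 difference was 6.48 ± 0.80. In fibroblasts without a UMI of 6 genes of other lineages it was 2.92 ± 0.74. Of its 368 UMIs in the labelled middle-aged male sum 166 lay in 1 fibroblast, and of its 118 UMIs in the labelled middle-aged female sum 54 lay in 1 fibroblast. The neutrophil genes S100a9 (4.53, 1.47, 23.9 and 16.7 CPM) and Retnlg (0.315, 0.294, 5.16 and 3.60 CPM), named after their values were seen, had the same order of groups.

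The leading genes on the lower side were also of different kinds. Meg3, a maternally expressed long noncoding RNA (chr12:109541001-109571726), was at 1000, 973, 219 and 132 CPM. The young libraries were nearly equal and both middle-aged libraries lay far below them, at a log2 difference of −2.40 ± 0.32 and a DESeq2 adjusted p of 7.41e-10. Hist1h1e, a linker histone, was at 23.1, 20.5, 4.88 and 2.96 CPM (−2.35 ± 0.35). Rbp4, the plasma retinol carrier, was at 39.8, 29.7, 7.88 and 9.10 CPM (−1.95 ± 0.34). Pth1r, the receptor for parathyroid hormone and its related peptide, was at 19.9, 24.4, 7.60 and 4.44 CPM (−1.75 ± 0.33). Nrep, a neuronal regeneration-related protein also found in wound fibroblasts, was at 137, 83.1, 26.0 and 27.7 CPM (−1.95 ± 0.37). None of these groups overlapped. Gm10600, a predicted protein-coding gene, had 186, 117, 3 and 0 UMIs in the 4 sums, and so few middle-aged UMIs give no bounded fold. All 12 leading genes were called by DESeq2, with adjusted p from 1.23e-10 to 0.0227. They were chosen by the smallest edgeR p in these same sums, so the calls are no separate support.

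**Figure D1:**
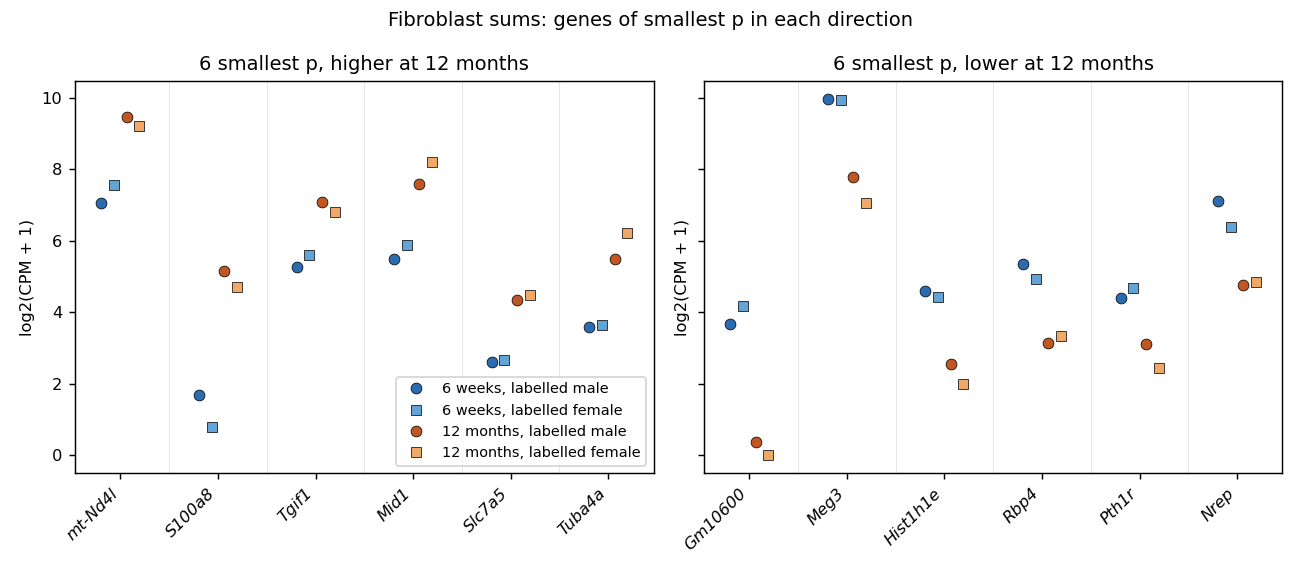
Level of the 12 genes of smallest p in the fibroblast sums, as log2(CPM + 1), with 1 point per library (blue, 6 weeks; orange, 12 months; circles, labelled male; squares, labelled female) and genes higher at 12 months on the left and lower on the right. In every gene both orange points lie on one side of both blue points; Meg3 is at 1000 and 973 CPM at 6 weeks and at 219 and 132 CPM at 12 months.

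The promoters of Meg3, a leading gene, and of Col3a1, a fibrillar collagen gene, are shown. Apart from Col1a2, a gene of the rule, Col3a1 has the highest level of the collagens described below. The sequences are the 250 bases before the start site from RefSeq (GRCm38.p6, + strand), 5′ to 3′, with motif matches in capitals. Meg3 lies at chr12:109540746-109540995 and is 1 of 2 promoters listed for the gene. Col3a1 lies at chr1:45311288-45311537.
Meg3: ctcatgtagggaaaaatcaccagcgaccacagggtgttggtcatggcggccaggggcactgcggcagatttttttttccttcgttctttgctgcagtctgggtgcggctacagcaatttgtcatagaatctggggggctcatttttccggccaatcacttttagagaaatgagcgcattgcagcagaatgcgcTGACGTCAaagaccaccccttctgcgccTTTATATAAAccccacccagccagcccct
Col3a1: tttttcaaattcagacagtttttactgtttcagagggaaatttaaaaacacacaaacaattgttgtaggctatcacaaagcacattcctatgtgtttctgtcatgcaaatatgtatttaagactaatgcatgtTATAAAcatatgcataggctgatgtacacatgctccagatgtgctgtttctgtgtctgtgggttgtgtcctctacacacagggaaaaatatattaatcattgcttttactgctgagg
In Meg3 the cyclic AMP response element (TGACGTCA) began 57 bases before the start site, and overlapping TATA box matches (TATAAA on either strand) began 29 and 25 bases before it. In Col3a1 the match was TATAAA, 117 bases before the start site. Over all 32851 promoters in the RefSeq table, searched on both strands from 250 bases before to 50 bases after the start, 1.79% held TGACGTCA and 13.6% held TATAAA. Of the 12 leading genes, 7 had promoters in the table, 17 promoters together. A gene is counted when any of its promoters holds the match, whereas the percentages are shares of single promoters, so the 2 cannot be compared directly. The cyclic AMP element was found in 1 of the 7 (Meg3) and the TATA box in 3 (Meg3, Rbp4 and S100a8). The antioxidant response element (TGACNNNGC, 12.4% of all promoters) was found in Mid1 and Tgif1 and the AP-1 site (TGANTCA, 7.81%) in Rbp4. The heat shock element (GAANNTTC, 7.86%) and the E-box (CACGTG, 7.15%) were found in none of these windows. A match describes the letters only.

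Most fibrillar collagen genes, and many of the other collagens, had lower values in both 12-month libraries. Of 7 fibrillar collagens tested, 6 had both middle-aged libraries below both young ones and none had both above, against 23.8% and 21.3% of all genes. DESeq2 called 4 of them lower, and their median log2 difference was −1.56. Col1a2, a gene of the rule that chose the cells, is 1 of the 6 and 1 of the 4. Without it 5 of 6 lay below, DESeq2 called 3 (the genes named next), and the median log2 difference was −1.47. The summed level of the fibrillar collagens other than Col1a2 was 36361, 13364, 4682 and 3609 CPM, so the sums at 12 months were the lower ones and the young male library was far above the young female one. Col3a1, the chain of type III collagen, was at 21018, 8377, 2609 and 1738 CPM (log2 difference −2.70 ± 0.58). Col1a1, the other chain of type I collagen, was at 12990, 3485, 1220 and 1335 CPM (−2.63 ± 0.70). Col5a2, a chain of the type V collagen that limits fibril diameter, was at 1125, 717, 332 and 258 CPM (−1.56 ± 0.36). The spread within the young age was wide, and leaving out 1 library moved the log2 difference of Col1a1 between −3.30 and −1.23.

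The other collagens had the same order. Of 19 tested, 12 had both middle-aged libraries below both young ones and none above, and DESeq2 called 3 lower (median log2 difference −1.04). Col15a1, a basement membrane zone collagen, was at 191, 153, 68.1 and 33.4 CPM. Col18a1, the precursor of endostatin, was at 69.3, 147, 37.4 and 20.3 CPM. Col6a6, a chain of the beaded-filament collagen VI, was at 117, 46.8, 19 and 18.8 CPM. These are the 3 that DESeq2 called, with adjusted p of 0.0094, 0.0158 and 0.0187. The enzymes that process and crosslink collagen were spread more widely. Of 26, 13 had both middle-aged libraries below and none above, with a median of −0.44 and 1 DESeq2 call. That call was Adamts2, the procollagen N-proteinase, at 387, 274, 113 and 110 CPM (−1.47 ± 0.32).

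Non-collagen matrix genes were mixed, with single members far below their 6-week level. Sparc, a collagen-binding glycoprotein made with collagen, was at 17243, 4222, 1534 and 2107 CPM (−2.50 ± 0.75). Both middle-aged values were below both young ones, but the young female value was closer to the middle-aged values than to the young male one. Without the young male library the log2 difference of Sparc was −0.99, and without the young female library it was −3.19. Among 33 matricellular and adhesion glycoproteins, 12 had both middle-aged libraries below and 5 above (median −0.48), and Sparc was the only DESeq2 call. Bgn (biglycan, a small leucine-rich proteoglycan of fibril surfaces) was at 428, 385, 175 and 157 CPM (−1.19 ± 0.26). Of the 9 proteoglycans of its class, 2 lay below and 1 above. Among 18 elastic fibre genes 5 lay below and 2 above, and in both lists the share below was near that of all genes. DESeq2 called Mfap2, a microfibril protein, at 155, 200, 72.5 and 41.1 CPM, and Mfap4, at 59.2, 24, 7.41 and 1.06 CPM. Matrix proteases and their inhibitors had 10 of 32 members below and 3 above, and no DESeq2 call. Fap, a surface protease of activated fibroblasts, was at 79.2, 146, 61.6 and 31.7 CPM.

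**Figure D2:**
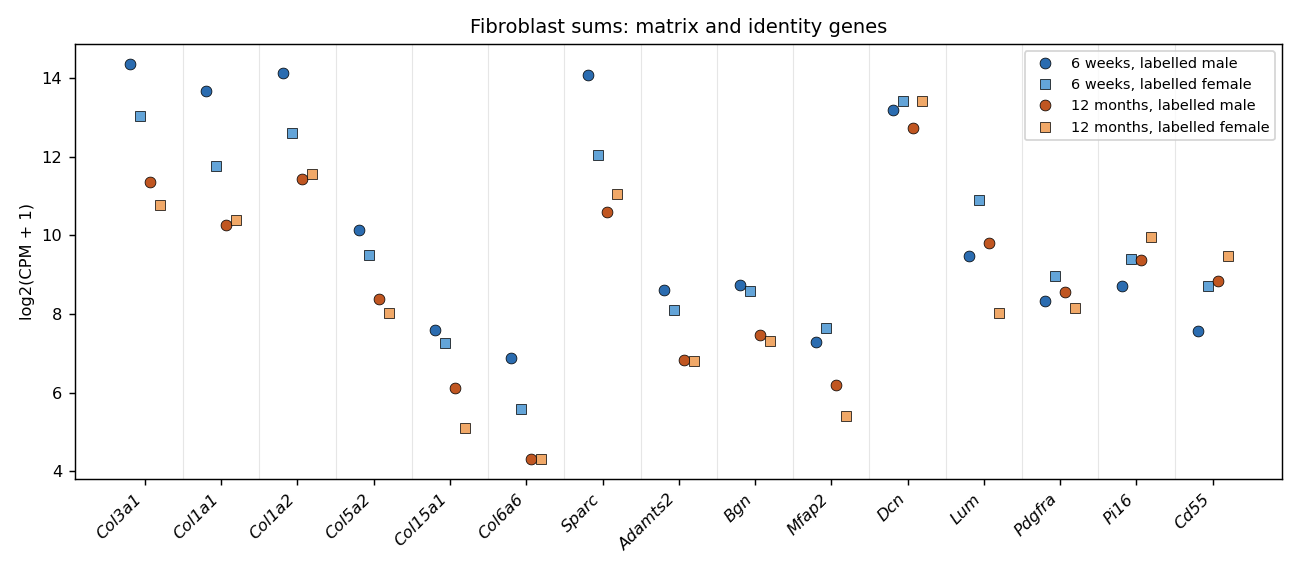
Level of matrix and fibroblast identity genes in the fibroblast sums, as log2(CPM + 1), with 1 point per library (blue, 6 weeks; orange, 12 months; circles, labelled male; squares, labelled female). The collagens, Sparc, Adamts2, Bgn and Mfap2 have both 12-month points below both 6-week points, whereas those of Dcn, Lum and Pdgfra overlap.

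At equal depth fewer middle-aged than young fibroblasts held a UMI of Col3a1 or Meg3. With each fibroblast thinned to 1000 UMIs, which left out 59, 25, 65 and 1 shallower cells, Col3a1 was detected in 99.5%, 92.8%, 72.6% and 51.8% of fibroblasts. In leukocytes thinned to the same depth it was found in 8.21%, 4.21%, 1.61% and 1.09%. Without thinning, the Col3a1 shares were 99.9%, 98.2%, 88.6% and 88.7%. Most middle-aged fibroblasts therefore still carried Col3a1 RNA. Meg3 was detected in 51.0%, 45.3%, 13.9% and 7.16% of thinned fibroblasts and in 1.09%, 0.543%, 0.146% and 0% of leukocytes, and unthinned in 77.3%, 72.3%, 25.7% and 24.9% of fibroblasts. Mid1 was detected in 4.04%, 5.41%, 16.9% and 26.9% of thinned fibroblasts and in 3.85%, 2.92%, 17.4% and 7.61% of leukocytes. Unthinned, the Mid1 shares were 13.3%, 18.1%, 38.5% and 79.4%. The thinned leukocyte shares of Mid1 were close to those of fibroblasts in the young male and the labelled middle-aged male library, which differed in Xist and Y-linked RNA.

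Imprinted growth genes, many of which are active in fetal and juvenile tissue and decline after weaning, were divided between lower and overlapping values. Of 18 tested, 8 had both middle-aged libraries below both young ones and 1 above (median −0.40), and Meg3 was the only DESeq2 call. Mirg, a noncoding RNA of the same imprinted cluster, was at 28.1, 15.0, 8.26 and 3.39 CPM. Slc38a4, an imprinted amino acid transporter, was at 7.05, 10.7, 2.06 and 0.423 CPM. Igf2, the imprinted fetal growth factor, had no UMI in any of the 4 sums. In the IGF axis 5 of 17 lay below and 4 above. Igfbp7, an IGF-binding matrix protein, was at 588, 520, 186 and 296 CPM. Igf1 was at 274, 126, 66.7 and 113 CPM, with the groups overlapping on the TMM scale. Of 26 cell cycle genes 6 lay below, near the share of all genes, and 3 above. Top2a, a topoisomerase of dividing cells, was at 11.3, 1.18, 0.657 and 1.06 CPM, a level set apart only in the young male library.

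Genes of fibroblast subtypes were divided between the directions. Of 18 genes of adventitial progenitor-like fibroblasts, 8 had both middle-aged libraries above and 2 below (median 0.55), with no DESeq2 call. Cd55, a complement decay-accelerating protein, was at 188, 416, 459 and 706 CPM. Pi16 was at 420, 677, 656 and 999.8 CPM and Dpp4 at 191, 367, 285 and 340 CPM, and their groups overlapped on plain CPM. Both were named after their values were seen. On the TMM scale both middle-aged values of Pi16 lay above both young ones, whereas the Dpp4 groups still overlapped. Genes of preadipocyte-like fibroblasts had 6 of 22 below (27.3%, near the 23.8% of all genes) and 2 above, with 3 DESeq2 calls. These were the lipoprotein lipase gene Lpl at 477, 786, 254 and 158 CPM, the lipolysis inhibitor G0s2 at 104, 35.3, 16.0 and 3.39 CPM, and Col15a1. The adipocyte markers in the same sums were highest in the young male library. Fascia and tendon-like genes had 4 of 9 below (44.4%) and 2 above (22.2%, near the 21.3% of all genes). Prg4 (lubricin) was at 26.1, 38.6, 59.6 and 289 CPM, high in 1 library, and without that library its log2 difference was 0.94 in place of 2.61 ± 0.76. Thbs4, a thrombospondin of tendon, was at 94.9, 19.4, 0.469 and 4.44 CPM. Myofibroblast genes had 6 of 15 below and 2 above, and Cthrc1 was at 10.8, 23.2, 4.79 and 0.635 CPM.

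Ligands and feedback regulators of the TGF-beta family included several genes with higher values at 12 months. Of 34 TGF-beta and BMP genes, 11 had both middle-aged libraries above and 1 below, against 21.3% and 23.8% of all genes (median 0.20). DESeq2 called 3 higher, which were the stress-induced ligand Gdf15, the ligand Bmp2 and Skil, a SMAD corepressor that TGF-beta induces. Bmp2 was at 43.4, 60.3, 123 and 171 CPM (1.64 ± 0.30). Skil was at 67.8, 105, 243 and 212 CPM (1.52 ± 0.26). Gdf15 was at 4.84, 8.09, 24.9 and 20.3 CPM (1.94 ± 0.32). Of 29 Wnt genes 7 lay below, near the share of all genes, and 3 above. In this family Wnt5a, a noncanonical ligand, was at 70.2, 60.6, 25.9 and 26.7 CPM, whereas Wnt10b, a canonical ligand, was at 9.94, 17.1, 29.3 and 60.7 CPM. Dkk2, a secreted Wnt antagonist, was at 27.7, 10.9, 3.10 and 0.423 CPM. In the PDGF and FGF list 4 of 22 lay above and 4 below. Pdgfrl, a PDGF receptor-like secreted protein, was at 38.9, 12.2, 0.657 and 2.33 CPM (−4.20 ± 0.90).

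Many cytokine and NF-kB response genes and several chemokines had higher values in both 12-month libraries, and the highest chemokine values were in the labelled middle-aged female one. Of 37 cytokine and NF-kB response genes, 20 had both middle-aged libraries above and 2 below, DESeq2 called 4 higher, and the median log2 difference was 0.82. Cxcl2, a neutrophil-attracting chemokine, was at 304, 158, 771 and 2870 CPM (3.10 ± 0.77). Ccl2, which attracts monocytes, was at 526, 913, 1470 and 8172 CPM (2.93 ± 0.85), and DESeq2 did not call it (adjusted p = 0.233). Ccl7, a related chemokine, was at 474, 406, 759 and 3053 CPM (2.26 ± 0.70). In each of these the labelled middle-aged female library held several times the level of the labelled middle-aged male one, and without it the log2 difference of Cxcl2 was 1.74, of Ccl2 1.09 and of Ccl7 0.81. The 26 chemokine ligands in the matrix summed to 3766, 3624, 5834 and 21040 CPM, but of the 22 tested only 6 had both middle-aged libraries above, with 3 below, and the median log2 difference was 0.08 (−0.03 on plain CPM).

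Intracellular members of the NF-kB response were less uneven between the middle-aged libraries. Ier3, an early response gene, was at 257, 241, 571 and 803 CPM (1.59 ± 0.33). Nfkb1, the p105 and p50 subunit, was at 314, 383, 660 and 772 CPM (1.16 ± 0.27). Il33, an alarmin of stromal nuclei, was at 56.9, 56.6, 106 and 135 CPM (1.20 ± 0.27). DESeq2 called these 3 genes with adjusted p of 0.00139, 0.0102 and 0.03. Il33 was nearly absent from leukocytes, at 0, 0, 0.290 and 0 CPM.

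Interferon-induced genes had 12 of 43 members above (27.9%, against 21.3% of all genes) and 2 below (median 0.21). Rsad2, the antiviral protein viperin, was at 13.8, 22.8, 68.6 and 155 CPM (2.78 ± 0.50) and was the only DESeq2 call of the list. Isg15, a ubiquitin-like modifier, was at 58.9, 113, 144 and 304 CPM. MHC class I presentation had 7 of 25 above (28%, against the same share of all genes) and 4 below. Psme1, a proteasome activator subunit, was at 99.6, 152, 205 and 201 CPM. The 12 MHC class II genes in the matrix, 7 of them tested, summed to 277, 189, 216 and 18.6 CPM, against 14609 to 21624 CPM in leukocytes. They were low in the same library as the macrophage markers. Complement genes had 3 of 23 above and 3 below, and DESeq2 called Clu (clusterin) at 9.06, 11.5, 53.8 and 18.2 CPM.

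Many stress-response genes had higher values in both 12-month libraries. Of 40 heme, thioredoxin and glutathione stress genes, 17 had both middle-aged libraries above and 2 below (median 0.42), and DESeq2 called 4 higher. Slc7a11, the cystine importer, was at 2.96, 2.06, 14.5 and 14.2 CPM (2.57 ± 0.39). Sqstm1, an autophagy receptor that also acts on the KEAP1 sensor, was at 193, 254, 495 and 501 CPM (1.28 ± 0.25). Gclc, the catalytic subunit of glutathione synthesis, was at 69.1, 52.7, 132 and 129 CPM (1.19 ± 0.28). In these 3 genes the 2 middle-aged libraries were nearly equal. Hmox1 (heme oxygenase 1), named after its values were seen, was at 140, 85.3, 218 and 931 CPM, and without the labelled middle-aged female library its log2 difference was 0.96. The list summed to 24699, 23087, 24032 and 49452 CPM. Of the sum in the last library 16135 CPM came from the metallothionein gene Mt1, whose groups overlapped (3485, 5758, 4993 and 16135 CPM).

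Of 34 genes of the unfolded protein and integrated stress response, 14 lay above and 3 below (median 0.25), with DESeq2 calls for Slc7a11 and Slc7a5. Sesn2, a stress-induced sestrin, was at 8.56, 10.6, 29.0 and 17.1 CPM. Of 23 heat shock chaperones 11 lay above and none below (median 0.31), with no DESeq2 call, and Hspd1, the mitochondrial chaperonin, was at 129, 145, 183 and 223 CPM. Immediate early genes had 11 of 37 above and 5 below and nearly level sums of 22762, 22100, 22654 and 21412 CPM. Among them Fosl1, an AP-1 subunit, was at 45.9, 35.6, 88.9 and 237 CPM, whereas Btg2, an antiproliferative early gene, was at 384, 351, 173 and 111 CPM. Ndrg1, a hypoxia-induced gene, was at 84.0, 85.0, 199.7 and 188 CPM (1.31 ± 0.23). Its list of hypoxia and glycolysis genes had 8 of 29 above and 4 below. The CDK inhibitor and p53 target genes had 4 of 27 above and 7 below, the latter near the share of all genes.

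**Figure D3:**
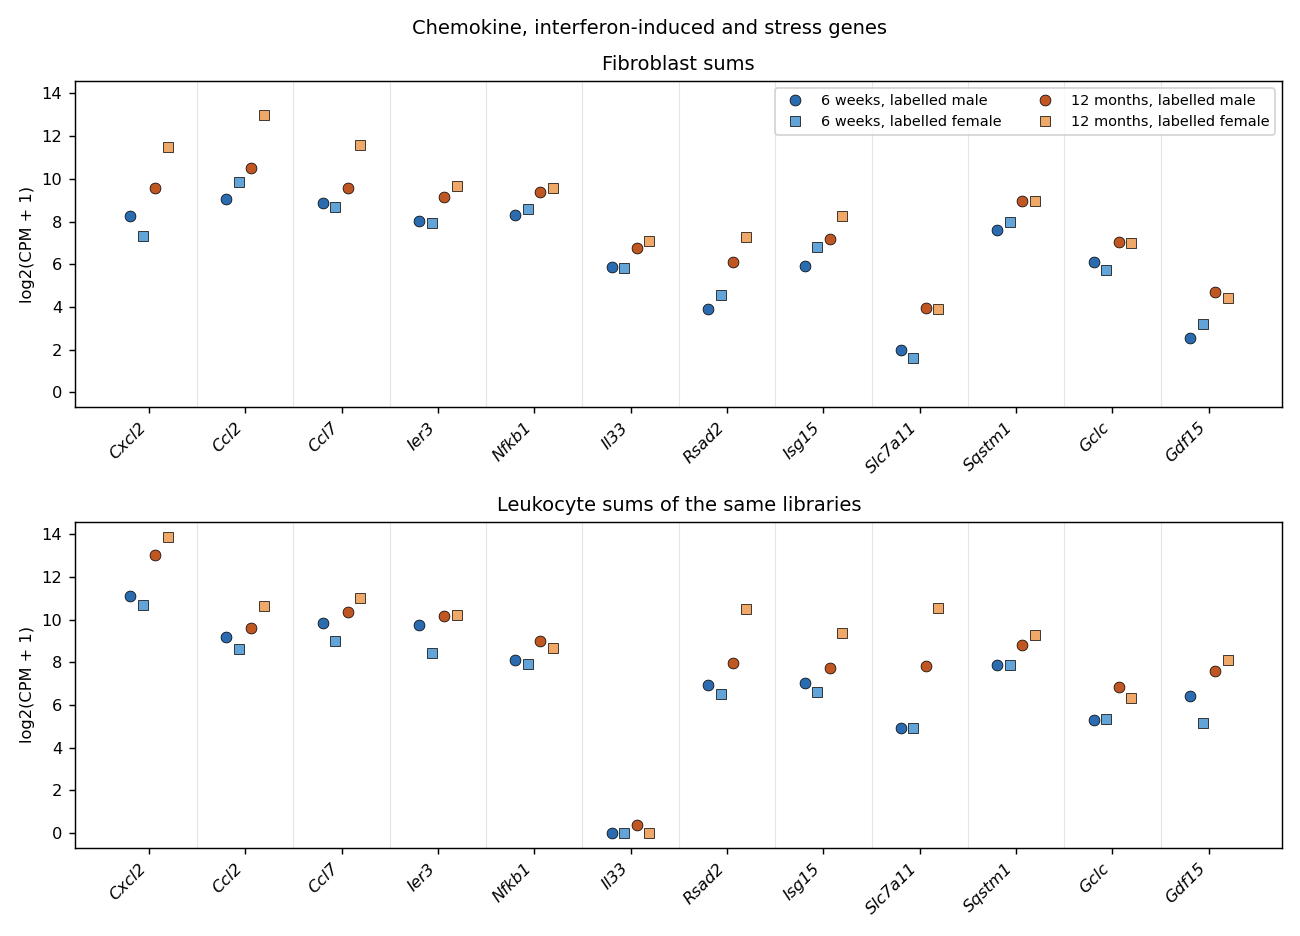
Level of chemokine, interferon-induced and stress genes, as log2(CPM + 1), in the fibroblast sums (top) and in the leukocyte sums of the same libraries (bottom), with 1 point per library (blue, 6 weeks; orange, 12 months; circles, labelled male; squares, labelled female). Both 12-month points lie above both 6-week points in all 12 genes in fibroblasts. In leukocytes Il33 is at or near 0, and Slc7a11 has the same order of ages as in fibroblasts, at 29.6, 29.7, 223 and 1494 CPM. The leukocyte sum of the labelled middle-aged female library held far more mast cell and neutrophil marker RNA than the others.

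Transcripts of the translation machinery had a small difference in one direction. Of 82 cytosolic ribosomal protein genes, 57 had both middle-aged libraries above both young ones and none below on TMM-normalised CPM, and 31 above and none below on plain CPM. The median log2 difference was 0.37 (0.27 on plain CPM), and DESeq2 called 7 higher. Rpl35 was at 880, 1631, 3005 and 2950 CPM. The list summed to 145926, 200278, 253291 and 202648 CPM, so the young female and the labelled middle-aged female library were nearly level. Ribosomal protein genes have many near-identical processed pseudogenes, and their counts are uncertain for that reason. Nuclear-encoded respiratory chain genes had no stable direction, with 25 of 74 above and 13 below on the TMM scale but 11 above and 25 below on plain CPM. Mitochondrially encoded genes had 5 of 13 above and none below, with mt-Nd4l as the only DESeq2 call.

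Lipid uptake and adipogenic genes had 11 of 39 below (28.2%, against 23.8% of all genes) and 7 above (median −0.05), with 3 DESeq2 calls on the lower side. One was Apoe, the lipid carrier apolipoprotein E, at 639, 1051, 385 and 220 CPM (−1.37 ± 0.35), and the others were Lpl and G0s2. Circadian clock genes had 4 of 16 above and none below. Dbp, an output gene of the clock, was at 130, 11.9, 14.6 and 9.31 CPM, high only in the young male library, and Arntl, a core activator of the clock, was at 11.2, 42.7, 56.9 and 60.3 CPM, low only there. The labels do not give the time of day of the dissections, and its part in these values was not tested.

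**Figure D4:**
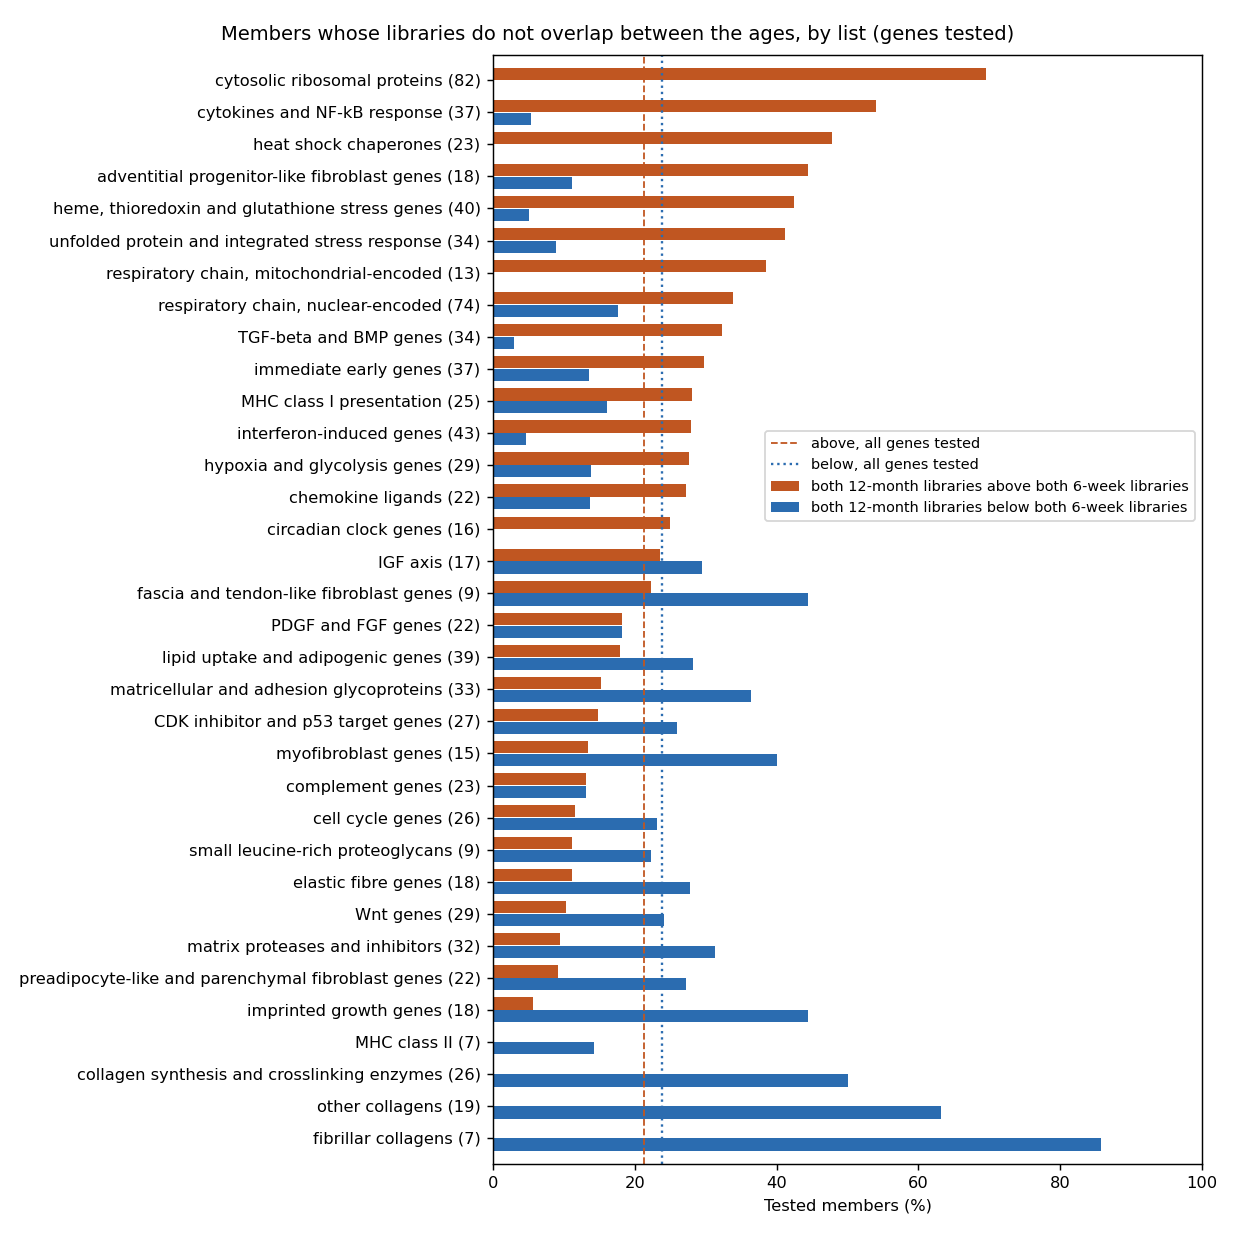
Percentage of the tested members of each gene list with both 12-month libraries above both 6-week libraries (orange bars) or below them (blue bars), on TMM-normalised CPM, with the number of genes tested in parentheses. The vertical lines mark all 12052 genes tested, at 21.3% above and 23.8% below; the fibrillar collagens reach 85.7% below, with Col1a2, a gene of the rule, among them (83.3% without it), and the ribosomal proteins 69.5% above.

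Some of the genes described above had the same order of ages in the leukocytes of the same libraries, and others did not. Cxcl2 was at 2183, 1649, 8248 and 15122 CPM in leukocytes, Sqstm1 at 234, 230, 449 and 615 CPM and Rsad2 at 120, 91.1, 246 and 1456 CPM. In each, both middle-aged libraries lay above both young ones, as in fibroblasts. The leukocyte sums were not alike in make-up. The 12 mast cell and neutrophil markers summed to 1290, 693, 382 and 34693 CPM in them. The part of this in the leukocyte values and in the interaction below was not tested. The log2 difference in leukocytes was −0.05 ± 0.31 (SE) for Apoe, −0.09 ± 0.43 for Bgn and 0.15 ± 0.32 for Ndrg1, against −1.37, −1.19 and 1.31 in fibroblasts. Tgif1 was at 115, 139, 313 and 254 CPM in leukocytes. Collagen RNA in leukocytes was at a small fraction of the fibroblast level and had the same order of libraries, with Col3a1 at 82.3, 39.0, 13.0 and 6.39 CPM. In leukocytes alone 0 of 10206 genes passed edgeR's test, 1208 of them at an unadjusted p under 0.05. The difference between the cell types was tested as an interaction of cell type and age with the library as a block. It called 1 of 12418 genes (0.00805% on the lower side and 0% on the higher), Iglc1, an immunoglobulin light chain gene, and 619 genes (4.98%) had an unadjusted p under 0.05. Tuba4a had a fibroblast difference larger than the leukocyte difference by 1.41 ± 0.33 on the log2 scale, with an edgeR adjusted p of 0.908. For Meg3 the 2 differences were apart by −0.14 ± 0.92, with leukocyte levels of only 16.2, 4.87, 2.90 and 0 CPM. For Col3a1 they were apart by −0.12 ± 0.30 and for Cxcl2 by 0.15 ± 0.41. Whether collagen RNA inside leukocyte barcodes came from free RNA was not tested, and the free RNA held Col3a1 at 4065, 1370, 511 and 289 CPM.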

How the data were processed

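The deposited values are raw UMI counts per gene and droplet barcode, unnormalised and without cell calling per the file headers, and the authors deposited them as they left the counting step. Cell Ranger 3.0.2, the mm10 build and Seurat are named without roles, per the submitters' processing notes. Each of the 4 libraries listed 6794880 barcodes. Genes with the same symbol were summed, and coordinates are from GENCODE M21 (GRCm38), in which 31011 of 31053 gene IDs were found.

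Fibroblast and leukocyte counts were summed per library, since cells are not replicates. The main test was edgeR 4.0.16 under R 4.3.3 (TMM, filterByExpr by age, quasi-likelihood F test, Benjamini-Hochberg over all genes tested) with age alone in the model and 2 residual degrees of freedom. The interaction with cell type used 8 sums with the library as a block. DESeq2 1.42.0 on the same counts, other filters, gates, scalings and each library left out were alternatives. Scripts ran under Python 3.11.15 (scanpy 1.11.5, with scrublet for doublets at 6% expected). The main edgeR test was also run on simulated counts, drawn with less spread between libraries than was fitted to the data. Doublets were removed in the main result only by the absence of Ptprc and Pecam1. Scrublet marked 3.51%, 1.42%, 2.77% and 0.100% of kept barcodes (order as in the results), and in the last library, with 999 kept barcodes, its share was too small to rely on. Free RNA was taken from barcodes with 10 to 100 UMIs, and scaled by macrophage markers it came to 6.23%, 3.20%, 5.80% and 0.737% of the sums.

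Named genes are the 6 of smallest p in each direction, since fewer than 3 were called, up to 3 members of smallest p of each list, the 3 markers of the rule and the sex-linked check genes. Genes marked so in the text, and Pi16, Dpp4, Igf2, Mt1, Lum and Iglc1, were added after their values were seen. The members and the 47 lists were chosen with earlier results of these data known. Intervals and shares of cells cover counting error only. In these sums, fewer cells with a transcript and less transcript per cell cannot be told apart except where shares of cells are given. The results of 2 genes that the rule named are not reported here.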

Additional observations from a re-analysis of the deposited data

Results flagged for a closer look

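Iglc1, an immunoglobulin lambda light chain gene of B and plasma cells, was flagged because its fibroblast difference between the ages departed from its leukocyte difference, by −11.95 ± 0.57 on the log2 scale (SE, 4 libraries), with an edgeR adjusted p of 0.00138. It had 1, 2861, 3 and 0 UMIs in the fibroblast sums, in the order used above. In the young female library 2856 of the 2861 UMIs lay in 1 barcode. Without that library no gene passed the interaction test.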

How the results depend on the processing

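With edgeR's main settings 0 of 12052 genes passed. Without a filter on low counts 549 passed (333 higher and 216 lower), 461 of which were tested in the main fit, and the estimated prior degrees of freedom was infinite there and 3.81 with the filter. DESeq2 called 114 genes, of which 112 also passed without the filter, and labelled sex in the model with the middle-aged labels exchanged gave 6. The other alternatives, and leaving out any 1 library, gave 0. The cause of these differences was not tested. For the difference from leukocytes 1 gene passed, against 0 with at least 30 CPM in 4 sums and 0 with all other kept barcodes as the comparison. Leaving out 1 library gave 0 (without the young female library) to 88 (without the labelled middle-aged male one). The sex-linked check genes and the genes named after their values were seen are left out here. Of 101 other named genes, 0 turned direction in 16 alternatives that keep all 4 libraries and 3 did with 1 library left out. Their log2 differences then ranged from −3.41 to 0.21 for Dbp, from −0.54 to 0.30 for Dcn and from −0.39 to 0.075 for Pdgfra. Without the filter 75 of the named genes passed, and 51 were called by DESeq2. Most named genes were chosen by small p in these same sums, so these counts are no separate support. Of 36 medians of gene lists, 7 turned sign in alternatives with all libraries and 14 with 1 left out, and those of chemokines, complement, CDK inhibitor, hypoxia and nuclear respiratory chain genes turned on plain CPM. The labels give no replicate numbers, and the fits with labelled sex, which set 1 library of each age side by side, called 0 genes as labelled and the 6 above with the exchange. Depth limits the labelled middle-aged female sum most (4725821 UMIs, 462 cells).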

Other observations

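Outside the gene lists, 4 genes called by DESeq2 were picked after their values were seen. Mrgprg, a Mas-related G protein-coupled receptor, was at 0.629, 3.68, 134 and 46.1 CPM, a log2 difference of 5.66 ± 0.89 (SE, n = 2 libraries per age) with an edgeR adjusted p of 0.566 and a DESeq2 adjusted p of 3.04e-11. It was almost absent at 6 weeks and present in both libraries at 12 months, with at most 22 UMIs in any 1 fibroblast of the labelled middle-aged male library. Itgb7, an integrin chain best known from lymphocytes, was at 12.8, 8.98, 42.9 and 145 CPM. Ptprc was at 0 in every cell by the rule, and whether the Itgb7 RNA came from other cells was not tested. Itm2a, a membrane protein of developing cartilage and muscle, was at 235, 410, 78.7 and 23.7 CPM. Nme2, a nucleoside diphosphate kinase, was at 8.81, 16.3, 27.4 and 146 CPM, with the labelled middle-aged female library apart from the other 3, and without it the log2 difference was 1.20 in place of 2.98 ± 0.84.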
